A study of Rattus norvegicus with 50 samples.

Results

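The comparison described here was that of rat lungs 90 days (D90) after the end of a 4-week inhalation of titanium dioxide (TiO2) nanoparticles with lungs of unexposed rats of the same day. Its members were chosen by the sample titles alone, 5 exposed and 5 control lungs, which are 10 of the 50 samples of the series. All were male F344 rats, an inbred laboratory strain, aged 12 weeks when they entered the study. Exposed rats breathed an aerosol of TiO2 P25 at 10 mg/m3 through the nose, 6 h a day on 5 days a week for 4 weeks. Control rats breathed filtered air instead. The other 40 lungs, again 5 per group, came from the last exposure day, called D0, and from D3, D28 and D180, named by the days that had passed since then. Gene expression was read from the accessory lobe on one-colour Agilent rat arrays, 1 array per rat.

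TiO2 P25 is a poorly soluble particle, so that what is deposited in the alveoli is carried away slowly, mainly by alveolar macrophages. Macrophages loaded with such particles, and the airway and alveolar epithelium around them, can release chemokines, antimicrobial proteins and chitinase-like proteins. The arrays do not measure the particle load. The lung also holds a circadian clock, in which Arntl (Bmal1), with Clock or Npas2, drives the Per, Cry and Nr1d genes, and the Nr1d repressors act back on Arntl. Genes with a D-box are driven by Dbp and Tef, both outputs of that clock, and are repressed by Nfil3.

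The median signal of gene spots on the 10 arrays lay between 214 and 473 intensity units, 73.4 to 83.8% of the spots were well above background, and none was saturated. Pairs of arrays correlated at 0.983 to 0.996. The arrays lay on 3 slides, which held 2, 1 and 2 control arrays and 2, 1 and 2 exposed arrays, so each slide held both groups in equal number. Position on the slide was less even, since 4 of the 5 control arrays and 2 of the 5 exposed arrays lay in the first row. Row accounted for 70.6% of the second principal component of the 10 arrays, and exposure for 15.1% of it. Markers of alveolar type 1 and type 2 cells, club cells, ciliated cells, endothelium and alveolar macrophages were above background in both groups, as the label of lung requires. In bulk tissue fewer cells of a type and less RNA per cell cannot be told apart.

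At D90, 94 of 25238 genes or transcripts differed by at least 1.5-fold with an adjusted p under 0.05 (0.372% of those tested). These differentially expressed genes (DEGs) were 58 over-expressed (0.23%) and 36 under-expressed (0.143%) in exposed lungs. Among them 81 had a gene symbol. The over-expressed genes had a median fold change (FC) of 1.88 and reached 10.1, and 26 of them exceeded 2-fold. The under-expressed genes had a median FC of 1.96 and reached 2.95, and 15 exceeded 2-fold. All 5 exposed lungs lay above all 5 controls for 48 of the 58, and below them for 32 of the 36, whereas 2.15% and 1.67% of all genes were separated in this way (3.82% in either direction). With no fold limit 251 genes passed the adjusted p (0.995%), and 1817 had an unadjusted p under 0.05 (7.2%). Within each of the 3 slides taken alone, all 94 changed in the direction of the pooled value. Of all genes, 35.2% had the same direction in all 3 slides. The 94 were chosen by the pooled difference of these same arrays. Their agreement between slides and the separation of their groups are therefore no separate test. With slide as a term in the fit, the estimates at D90 stayed as they were, the median standard error (SE) of a gene fell from 0.168 to 0.108, and the count was 147 (87 over-expressed and 60 under-expressed), among which were all 94.

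**Figure D1:**
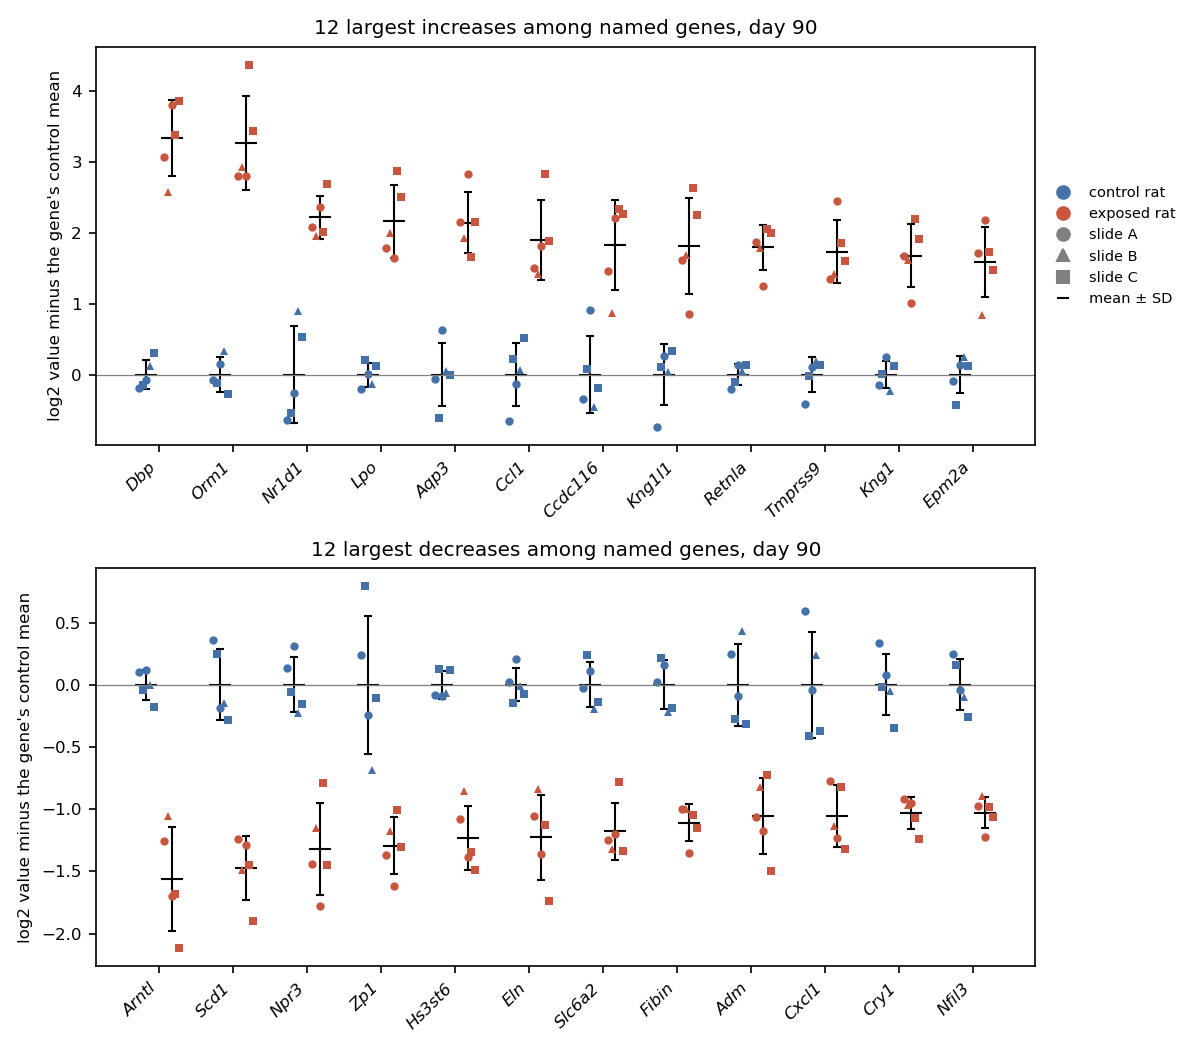
Values of the 10 D90 arrays for the 12 named genes with the largest increases (upper panel) and decreases (lower panel), as log2 normalised intensity minus the mean of the 5 controls of that gene. Points are rats, their shape is the slide, and bars are the mean and SD of 5 rats; the groups are apart for every gene shown except Ccdc116, where the lowest exposed value of 7.28 lies below the highest control value of 7.31.

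Among the DEGs with a symbol, the largest increase was that of Dbp, an output of the circadian clock, and the largest decrease that of Arntl, a part of the clock itself. Of the clock genes measured, exposed lungs had more Dbp, Nr1d1, Nr1d2, Per2, Per3 and Tef and less Arntl, Cry1, Nfil3 and Npas2. The gene lists counted here and below were chosen with earlier results of these data known, so their counts are descriptions only. Beside each count stands the share over all genes, 0.23% over-expressed and 0.143% under-expressed. In the list of the negative arm 4 of 9 measured genes were over-expressed and 1, Cry1, was under-expressed. In the list of the positive arm 3 of 7 were under-expressed, Arntl, Npas2 and Nfil3, and none over-expressed. Nfil3 is a repressor of D-box genes, so the count and median of that list are not those of activators alone. The median log2 change was 0.53 for the negative arm and -0.33 for the positive arm, against -0.0031 for all genes. Of 9 measured genes in the list of clock outputs, 3 were over-expressed, Dbp, Tef and Ccdc116, while the median of that list was 0.05 and 5 of the 9 were higher in exposed lungs.

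Dbp, the D-box activator, had log2 intensities of 9.94, 9.98, 10.06, 10.25 and 10.44 in the 5 control lungs and 13.21, 12.72, 13.94, 13.52 and 14.00 in the 5 exposed lungs. The log2 change of Dbp was 3.34 ± 0.24 (SE), an FC of 10.1 higher in exposed lungs (limma adjusted p = 5.25e-13). The lowest exposed rat was thus more than 2 log2 units above the highest control rat, and its 3 probes (rn4 chr1:96178064-96178123, chr1:96178148-96178207 and chr1:96178423-96178482) gave log2 changes of 3.35, 3.33 and 3.36. Whether a probe lies in an exon or a UTR of that build was not analysed here. Nr1d1 (REV-ERB alpha), which represses Arntl, read 7.57, 7.67, 7.95, 9.11 and 8.74 in control lungs and 10.29, 10.16, 10.57, 10.22 and 10.90 in exposed lungs on the log2 scale. Exposed lungs were thus 4.65-fold higher, with a log2 change of 2.22 ± 0.33 (SE, limma adjusted p = 2.55e-05). Control rats were more spread for Nr1d1 than exposed rats (SD 0.68 and 0.31), with control rats 4 and 5 the highest of their group. Its close relative Nr1d2 rose by 1.54 ± 0.18 on the log2 scale (limma adjusted p = 1.53e-07), Per2 by 1.23 ± 0.21 (adjusted p = 0.000359), Per3 by 1.12 ± 0.16 (adjusted p = 9.86e-06) and Tef by 0.92 ± 0.11 (adjusted p = 2.78e-07).

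Arntl, the positive partner of the clock, had log2 intensities of 10.23, 10.08, 10.24, 10.12 and 9.95 in control lungs and 8.87, 9.07, 8.43, 8.44 and 8.01 in exposed lungs. The log2 change of Arntl was -1.56 ± 0.17 (SE), an FC of 2.95 lower in exposed lungs (limma adjusted p = 4.13e-08). All exposed values lay below the lowest control value, and the 2 probes of the gene (rn4 chr1:171154767-171154826 and chr1:171161969-171162028) changed by -1.49 and -1.58. The repressor Cry1 was lower by 1.03 (log2 change -1.03 ± 0.13, limma adjusted p = 1.62e-06), as was Nfil3, which competes with Dbp for the D-box (-1.03 ± 0.12, adjusted p = 1.46e-07). Npas2, which can take the place of Clock, changed by -0.91 ± 0.23 (adjusted p = 0.0323), but its 2 probes differed, at -1.10 and -0.11. Clock itself (-0.33, adjusted p = 0.457), Per1 (0.53, adjusted p = 0.981) and Cry2 (0.24, adjusted p = 1) did not pass the test.

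The promoters of 3 of these genes are shown because each holds a letter-for-letter match to an element of the clock. They are the 250 bases before and 50 after the annotated start, from RefSeq on GRCr8, read 5′ to 3′ on the gene's strand, with the match in capitals. The first holds the ROR element TAGGTCA, to which Nr1d1 and Nr1d2 bind, 16 bases before the start of Arntl. In the second, the D-box TTANGTAA begins 192 bases before the start of Per2. In the third, the E-box CACGTG, the element that Arntl binds, begins 198 bases before the start of Tef.
Arntl (chr1:176766078-176766377, plus strand): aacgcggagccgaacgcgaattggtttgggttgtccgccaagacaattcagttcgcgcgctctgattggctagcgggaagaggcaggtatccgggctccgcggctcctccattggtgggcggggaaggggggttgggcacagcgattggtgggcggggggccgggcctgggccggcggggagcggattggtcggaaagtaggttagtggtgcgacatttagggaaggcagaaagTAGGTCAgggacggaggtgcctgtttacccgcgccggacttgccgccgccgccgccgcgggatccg
Per2 (chr9:99496944-99497243, minus strand): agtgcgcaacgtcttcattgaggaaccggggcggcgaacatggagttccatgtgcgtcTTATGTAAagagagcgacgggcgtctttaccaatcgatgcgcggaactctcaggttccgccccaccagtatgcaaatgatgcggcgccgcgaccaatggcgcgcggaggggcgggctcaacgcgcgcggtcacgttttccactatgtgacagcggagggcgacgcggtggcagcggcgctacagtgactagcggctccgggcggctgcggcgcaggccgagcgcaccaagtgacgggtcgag
Tef (chr7:115206577-115206876, plus strand): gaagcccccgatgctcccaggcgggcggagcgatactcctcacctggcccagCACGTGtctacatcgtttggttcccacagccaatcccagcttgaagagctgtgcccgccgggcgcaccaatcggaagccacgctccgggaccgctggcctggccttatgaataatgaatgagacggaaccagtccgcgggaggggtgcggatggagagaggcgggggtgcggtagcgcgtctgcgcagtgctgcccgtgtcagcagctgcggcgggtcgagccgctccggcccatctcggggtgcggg

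Of the 94 DEGs, 68 had a promoter in the RefSeq table, 45 of over-expressed and 23 of under-expressed genes. On either strand, the ROR element was present in 3 of 45 and 1 of 23 (2.6% of 27457 promoters), the E-box in 4 of 45 and 1 of 23 (6.65%) and the D-box in 2 of 45 and 0 of 23 (2.19%). The ROR element of Retnla began 227 and that of Chia 170 bases before the start, and the promoter of Chi3l1 held 2 D-boxes. No match was found in these windows for Dbp, Nr1d1, Nr1d2 and Per3. These counts are descriptions of the letters only.

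**Figure D2:**
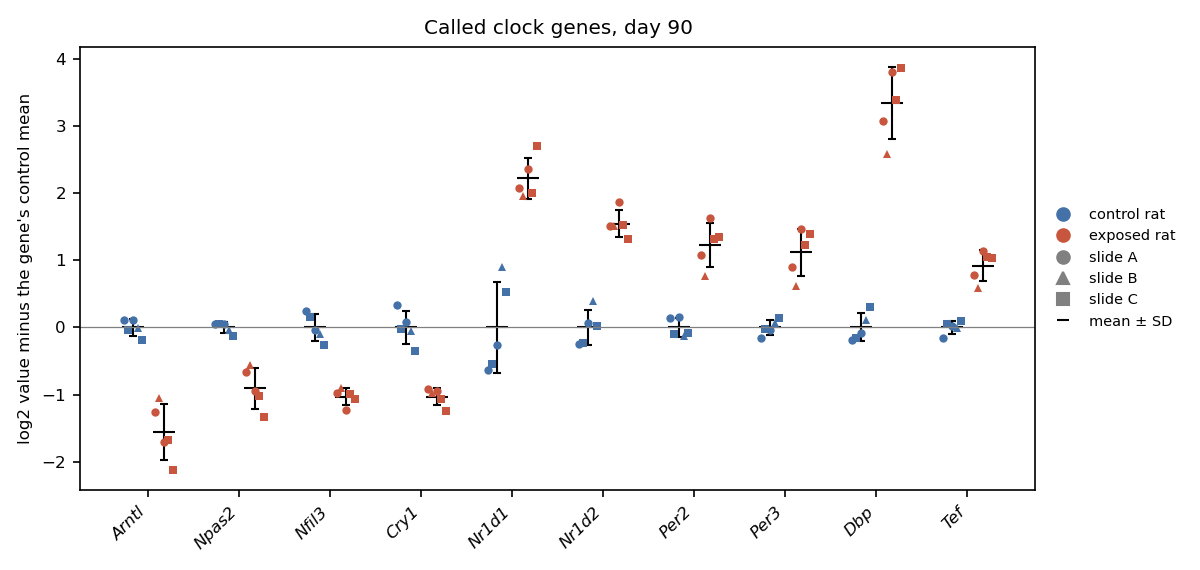
Log2 normalised intensity minus the control mean of each gene for the 10 clock genes over- or under-expressed at D90, in the 5 control and 5 exposed rats (shape, slide; bars, mean and SD). The 4 genes on the left lie below the controls in all 5 exposed rats, and the 6 on the right, up to Dbp with a log2 change of 3.34 and Tef, lie above them.

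The clock genes also differed between control groups of other days. The mean log2 intensity of Dbp in control lungs of D0, D3, D28, D90 and D180 was 14.56, 14.52, 10.08, 10.14 and 10.07, while in exposed lungs it was 12.57, 12.06, 13.32, 13.48 and 13.02. Dbp was therefore lower than in controls at D0 and D3 and higher at the later days. Arntl ran the other way, with control means of 7.13, 7.50, 10.03, 10.13 and 10.22 and exposed means of 8.37, 9.10, 8.57, 8.56 and 9.12. Control arrays of D0, D3 and D28 lay on other slides than those of D90 and D180. A comparison that used no D90 array, control lungs of D28 minus control lungs of D3, called 35 of the 94 DEGs (37.2%) against 0.602% of all genes. In 34 of the 35 the direction was opposite to that of exposure at D90. Over-expressed genes among these were 16, Dbp (-4.44), Nr1d1 (-3.12), Epm2a (-2.83) and Nr1d2 (-2.38) among them, and under-expressed genes 18, Arntl (2.52), Eln (2.31), Hs3st6 (2.08) and Npas2 (1.99) among them. Acot1 (1.08) was the exception. The remaining 59 DEGs, 41 over- and 18 under-expressed, were not called between those control groups. Between the control lungs of D180 and D90, 7 genes differed (0.0277%). Among them were the DEGs Scn10a (-0.92, limma adjusted p = 0.019) and LOC502358, a predicted globin (-1.45, adjusted p = 0.0463). Both were lower in control lungs of D180 than of D90. The hour at which the lungs of each group were taken is not given in the sources used here, and its part in these values was not tested.

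In the lists of airway genes, 1 of 12 oxidases and anion transporters and 2 of 16 mucins and secretory proteins were over-expressed, with medians of 0.23 and 0.09. Lpo, a peroxidase of airway secretions, had log2 intensities of 7.21, 7.61, 7.43, 7.29 and 7.54 in control lungs and 9.21, 9.41, 9.06, 10.28 and 9.92 in exposed lungs. The log2 change of Lpo was 2.16 ± 0.29 (SE), an FC of 4.48 higher in exposed lungs (limma adjusted p = 4.31e-06). Every exposed rat exceeded every control by more than 1 log2 unit. In the list of oxidases and anion transporters Lpo was the 1 gene called among 12, although Duox1, which makes the hydrogen peroxide that Lpo uses, rose by 0.51 ± 0.10 (limma adjusted p = 0.00373), below the 1.5-fold limit. Bpifb1, a secreted protein of airway glands and goblet cells, read 10.94, 10.97, 10.76, 10.63 and 10.64 in control lungs and 11.30, 11.82, 13.91, 11.72 and 11.48 in exposed lungs. The exposed group was thus 2.39-fold higher, with a log2 change of 1.26 ± 0.25 (SE, limma adjusted p = 0.00388). Exposed rat 3, at 13.91, stood above the other 4 exposed rats, which reached 11.82 at most. Without that rat the change was 0.79, which still passed. Fitted on the 10 arrays of D90 alone, the adjusted p of Bpifb1 was 0.326. The membrane mucin Muc20 was higher by 0.71 ± 0.16 (adjusted p = 0.0179) with 2 exposed values inside the control range, while the secreted mucin Muc5ac (-0.08) and the club cell protein Scgb1a1 (-0.09) did not differ beyond their error (adjusted p = 1 for both).

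Aqp3, a water and glycerol channel of basal epithelial cells, had log2 intensities of 8.62, 8.06, 9.31, 8.72 and 8.68 in control lungs and 10.84, 10.60, 11.51, 10.35 and 10.83 in exposed lungs. This was a log2 change of 2.15 with an SE of 0.24, or 4.43-fold higher (limma adjusted p = 8.77e-08). The groups did not overlap. Tmprss9, a membrane serine protease, rose by 1.74 ± 0.22 on the log2 scale (adjusted p = 1.15e-06), from a level that was well above background in 3 of the 5 controls. It was the 1 gene called among 17 epithelial serine proteases, and Tmprss4 rose by 0.54 ± 0.09 (adjusted p = 0.000104), below the fold limit. The protease Mmp7, made by airway epithelium, changed by 1.14 ± 0.24 (adjusted p = 0.00579), with control rat 3 at 7.44 inside the exposed range of 7.12 to 8.49. A predicted mucin-12-like gene, LOC102555154, rose by 2.06 ± 0.36 (adjusted p = 0.000574).

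Of 20 acute phase genes and 9 kinin genes, 2 each were over-expressed at D90, with list medians of 0.08 and 0.01. Orm1, an acute phase plasma protein, read 4.39, 4.35, 4.62, 4.80 and 4.19 in control lungs and 7.27, 7.40, 7.28, 8.84 and 7.90 in exposed lungs on the log2 scale. This was a log2 change of 3.27 with an SE of 0.43, or 9.64-fold higher (limma adjusted p = 3.13e-06). Only 3 of the 5 control arrays measured Orm1 well above background, so its fold depends on values near the background. The other acute phase gene over-expressed was the protease inhibitor Serpina3n (0.62 ± 0.15, adjusted p = 0.0234). Haptoglobin (Hp, 0.54, adjusted p = 2.39e-05) and complement C3 (0.52, adjusted p = 3.61e-05) rose in all 5 exposed rats above all controls but by less than 1.5-fold, while the neutrophil and epithelial protein Lcn2 was at -0.23 ± 0.21 (adjusted p = 1). In the acute phase list 15 of the 20 genes were higher in exposed lungs.

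The kininogens, precursors of the kinin peptides, were the 2 genes called of the 9 in their list. Kng1 had log2 intensities of 8.77, 8.92, 9.17, 8.68 and 9.05 in control lungs and 10.59, 10.53, 9.92, 11.12 and 10.83 in exposed lungs. This was a log2 change of 1.68 with an SE of 0.14, or 3.2-fold higher (limma adjusted p = 1.49e-10). Exposed rat 3 was the lowest of its group and still lay above all controls. Kng1l1 rose by 1.81 ± 0.25 (adjusted p = 8.9e-06). Their array probes are identical at 47 of 60 bases, so signal shared between them is uncertain. By accession, RefSeq on GRCr8 now gives these transcripts as Kng2 and Kng1. The receptors Bdkrb1 (-0.14) and Bdkrb2 (-0.18) did not pass the test (adjusted p = 1 for both).

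Of complement and coagulation genes, 1 of 40 was called. Cfi, the protease that inactivates C3b and C4b, read 11.95, 11.87, 12.05, 11.88 and 11.99 in control lungs and 12.53, 12.51, 13.10, 12.74 and 12.42 in exposed lungs. Exposed lungs were thus 1.64-fold higher, with a log2 change of 0.71 ± 0.09 (SE, limma adjusted p = 1.15e-06). Complement C8g (0.38, adjusted p = 0.0284) also passed the test without reaching 1.5-fold, and 24 of the 40 genes were higher in exposed lungs with a median of 0.10.

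In the list of chitinases and alternative activation of macrophages, 3 of 14 genes were over-expressed, Retnla, Chia and Chi3l1, and the median was 0.10. Retnla (FIZZ1), a secreted protein of alternatively activated macrophages and of epithelium, had log2 intensities of 10.83, 10.93, 11.17, 11.09 and 11.17 in control lungs and 12.91, 12.83, 12.29, 13.10 and 13.04 in exposed lungs. Exposed lungs were thus 3.47-fold higher, with a log2 change of 1.80 ± 0.18 (SE, limma adjusted p = 5.44e-09). The spread within each group was small beside the difference. Chia, the acidic mammalian chitinase of alveolar type 2 and airway cells, read 15.16, 15.01, 15.19, 14.89 and 15.16 in controls and 15.69, 15.92, 16.47, 16.34 and 15.86 in exposed lungs. This was a log2 change of 0.97 with an SE of 0.11, or 1.96-fold higher (limma adjusted p = 8.77e-08). It was among the brightest genes of the lung and did not overlap between groups. Chi3l1, a chitinase-like lectin without enzyme activity, rose by 0.59 ± 0.11 (adjusted p = 0.000819), just past the 1.5-fold limit. In the same list Arg1 (0.11), Mrc1 (0.25) and Chit1 (-0.01) did not pass the test.

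Spp1 (osteopontin), a phosphoprotein secreted by macrophages and injured epithelium, had log2 intensities of 9.08, 9.15, 9.39, 9.07 and 8.90 in control lungs and 9.55, 10.28, 10.96, 10.88 and 10.47 in exposed lungs. The log2 change of Spp1 was 1.31 ± 0.27 (SE), an FC of 2.48 higher in exposed lungs (limma adjusted p = 0.00539). Exposed rat 1 was the lowest of its group, just above the highest control. Spp1 was the 1 gene called in a list of 21 genes of lipid-laden macrophages, of which 19 were higher in exposed lungs, with a median of 0.14. Of 25 lysosomal genes 24 were higher (median 0.11, range -0.06 to 0.23, against a median of -0.0031 for all genes). In 9, among them Cd68, Ctss and Gusb, all exposed rats lay above all controls, as in 2.15% of all genes. None of the 25 passed the test. MHC class II genes were higher in 10 of 10 (median 0.24), 5 of them with all exposed rats above all controls (2.15% of all genes). RT1-DOa alone had an adjusted p under 0.05 (0.52 ± 0.12, adjusted p = 0.00961), below the fold limit. The alveolar macrophage markers Marco (0.24) and Siglec1 (0.22) did not pass the test. Summed over the 5 fixed markers, the alveolar macrophage level lay between -0.235 and 0.0061 in control lungs and between -0.0168 and 0.251 in exposed lungs, as a mean log2 deviation, and its part in the values above was not tested.

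Of the chemokines, Ccl1 was over-expressed and Cxcl1 under-expressed. Ccl1, a ligand of Ccr8 on type 2 and regulatory T cells, had log2 intensities of 4.16, 5.04, 4.68, 4.89 and 5.33 in control lungs and 6.33, 6.25, 6.64, 7.66 and 6.71 in exposed lungs. The exposed group was thus 3.72-fold higher, with a log2 change of 1.90 ± 0.34 (SE, limma adjusted p = 0.000581). Control levels were well above background on 3 of 5 arrays. It was the 1 gene over-expressed of 19 CC chemokines, of which 13 were lower in exposed lungs (median -0.08). Its receptor Ccr8 was at 1.30 (adjusted p = 0.655) and did not pass the test. Ccr10 was the 1 chemokine receptor called of 21, at 0.71 ± 0.16 (adjusted p = 0.0112), with 1 exposed value of 6.72 below the highest control value of 6.75.

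Cxcl1, a neutrophil attractant, was under-expressed at D90. Its log2 intensities were 13.44, 12.43, 12.80, 13.08 and 12.47 in control lungs and 12.07, 11.71, 11.61, 12.02 and 11.53 in exposed lungs. The log2 change of Cxcl1 was -1.05 ± 0.25 (SE), an FC of 2.08 lower in exposed lungs (limma adjusted p = 0.0224). All exposed values were below all controls, and control rats 1 and 4 were the highest. The related monocyte and neutrophil attractants Cxcl2 (-1.04, adjusted p = 0.221), Ccl12 (-1.05, adjusted p = 0.392), Ccl2 (-0.69, adjusted p = 0.198) and Ccl7 (-0.42, adjusted p = 0.873) had negative values without passing the test, as had the cytokine Tnf (-0.74, adjusted p = 0.107). Among 16 neutrophil genes Cd177, a surface protein of neutrophils, was the 1 called, at 0.66 ± 0.15 (adjusted p = 0.0182), while S100a9 was at 0.45 ± 0.16 (adjusted p = 0.298). The median of that list was -0.02. The macrophage elastase Mmp12 was at 0.23 ± 0.18 (adjusted p = 1).

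In the list of B and plasma cells 2 of 15 genes were over-expressed, Tnfrsf17 and Mzb1, and the median was 0.20. Tnfrsf17 (BCMA), a survival receptor of plasma cells, read 7.70, 8.38, 8.14, 7.69 and 7.90 in control lungs and 8.57, 8.58, 9.39, 8.48 and 8.85 in exposed lungs. Exposed lungs were thus 1.76-fold higher, with a log2 change of 0.81 ± 0.21 (SE, limma adjusted p = 0.0475). The lowest exposed rat lay just above the highest control. Mzb1, a chaperone of antibody assembly, changed by 0.61 ± 0.14 (adjusted p = 0.0219). In that list the B cell genes Ms4a1 (0.20) and Pax5 (-0.05) did not pass the test (adjusted p = 1 for both). Among DEGs without a symbol, chosen after their values were seen, were transcripts of the immunoglobulin joining chain (0.79 ± 0.17, adjusted p = 0.00961), the Ig gamma-2B constant region (0.82 ± 0.21, adjusted p = 0.0476) and an immunoglobulin lambda-like chain (0.68 ± 0.18, adjusted p = 0.0496). All 3 overlapped between groups, and probes of immunoglobulin genes may share signal.

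**Figure D3:**
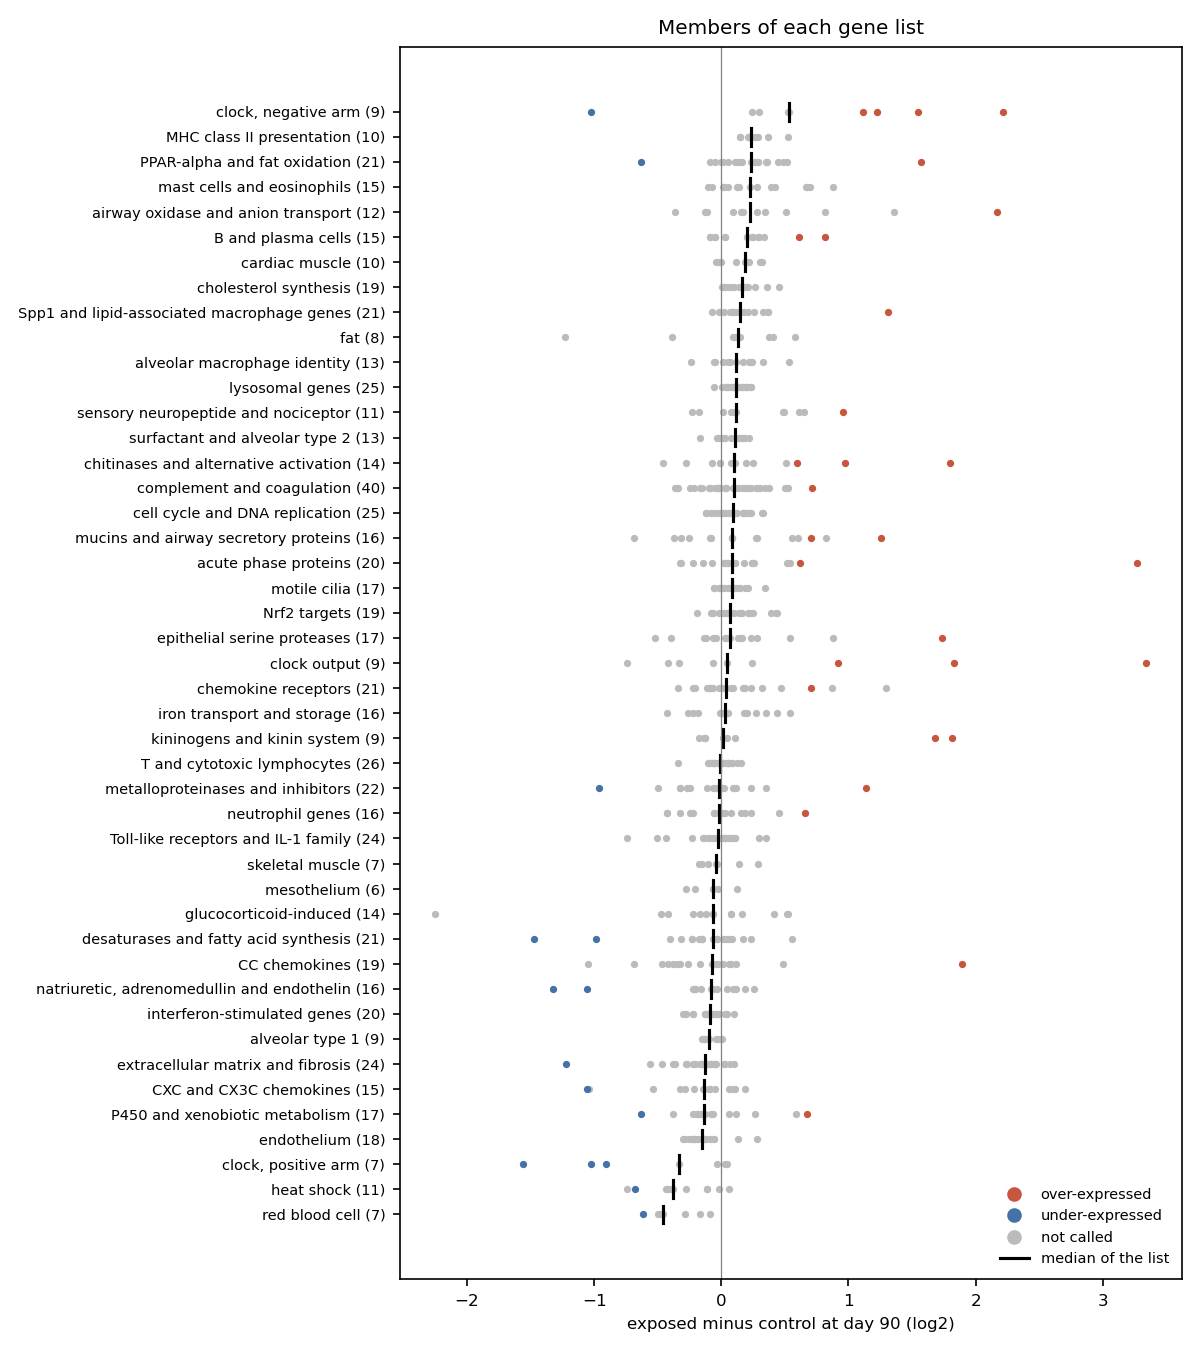
Log2 change, exposed minus control at D90, of every measured member (point) of 45 gene lists, with the median of each list as a black tick and the number of members measured in brackets. Lists are ordered by their median, which runs from -0.46 for red blood cell genes to 0.53 for the negative arm of the clock, and coloured points are over-expressed or under-expressed genes.

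Lipid metabolism changed in a small set of genes. Scd1, the stearoyl-CoA desaturase that makes monounsaturated fatty acids (Scd in RefSeq), had log2 intensities of 14.85, 14.73, 14.30, 14.34 and 14.21 in control lungs and 13.24, 12.99, 13.20, 13.04 and 12.59 in exposed lungs. This was a log2 change of -1.47 with an SE of 0.18, or 2.78-fold lower (limma adjusted p = 7.55e-07). Every exposed value lay below every control value. Scd4 changed by -0.99 ± 0.15 (adjusted p = 2.72e-05) and a transcript described as stearoyl-coenzyme A desaturase 3, LOC681458, by -1.30 ± 0.20 (adjusted p = 8.3e-05). The probes of Scd1, Scd4 and LOC681458 share at most 20 of 60 bases without gaps. Scd1 and Scd4 were the 2 genes called in a list of 21 genes of fatty acid synthesis, where Fasn (-0.15), Acaca (-0.17) and Srebf1 (0.02) did not pass the test (adjusted p = 1 for all).

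Acot1, which releases fatty acids from acyl-CoA and is a target of PPAR-alpha, read 8.68, 8.50, 9.46, 8.53 and 8.92 in control lungs and 10.74, 10.24, 10.93, 9.58 and 10.44 in exposed lungs. The log2 change of Acot1 was 1.57 ± 0.25 (SE), an FC of 2.97 higher in exposed lungs (limma adjusted p = 9.3e-05). Of 21 genes of PPAR-alpha and fat oxidation 18 were higher in exposed lungs (median 0.23). Cpt1a (0.49, adjusted p = 0.00272), Acaa2 (0.35, adjusted p = 0.00443), Slc25a20 (0.29, adjusted p = 0.000607) and Acadl (0.27, adjusted p = 0.00756), which carry fatty acids into mitochondria or oxidise them, passed the test below 1.5-fold. Cyp4b1, a fatty acid and xenobiotic hydroxylase of the lung, went the other way (-0.63 ± 0.11, adjusted p = 0.000844). Between control lungs, D28 minus D3, Cyp4b1 was also called (0.92), opposite to its direction at D90. With slide and row on the slide as blocks, Cyp4b1 fell below the fold limit. All 19 genes of cholesterol synthesis had positive values (median 0.16) and none was called, with Dhcr7 at 0.45 (adjusted p = 0.018).

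Of the lists of vessels and matrix, 1 of 24 matrix genes, 2 of 16 genes of natriuretic peptides, adrenomedullin and endothelin and 0 of 18 endothelial genes were under-expressed, and none was over-expressed. Eln, the elastin of vessel walls and alveolar septa, had log2 intensities of 12.33, 12.16, 12.51, 12.30 and 12.24 in control lungs and 11.26, 11.47, 10.95, 11.18 and 10.57 in exposed lungs. Exposed lungs were thus 2.34-fold lower, with a log2 change of -1.22 ± 0.20 (SE, limma adjusted p = 0.000108). The 2 probes of Eln gave -1.54 and -1.19. It was the 1 gene called of 24 matrix genes, of which 20 were lower in exposed lungs (median -0.13), Col1a1 (-0.38, adjusted p = 0.165) and Col3a1 (-0.28, adjusted p = 0.238) among them. Npr3, the clearance receptor of natriuretic peptides, read 8.62, 8.42, 8.80, 8.26 and 8.33 in control lungs and 7.05, 7.33, 6.71, 7.69 and 7.03 in exposed lungs. Exposed lungs were thus 2.5-fold lower, with a log2 change of -1.32 ± 0.19 (SE, limma adjusted p = 1.34e-05). Both groups were clear of each other. Adm, the vasodilator adrenomedullin, changed by -1.06 ± 0.16 (adjusted p = 4.32e-05). These were 2 of 16 genes in the list of natriuretic peptides, adrenomedullin and endothelin, whose median was -0.08. Eln (2.31) and Adm (0.88) were also called in control lungs of D28 minus D3, opposite to their direction at D90. Npr3 (0.68, limma adjusted p = 0.0529) was not called there, but its value was past the fold limit and also opposite to D90.

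Slc6a2, the noradrenaline transporter that pulmonary endothelium carries, changed by -1.18 ± 0.19 (adjusted p = 9.76e-05). The heparan sulfate sulfotransferases Hs3st6 (-1.23 ± 0.17, adjusted p = 1.25e-05) and Hs3st3a1 (-0.96 ± 0.12, adjusted p = 1.39e-06) were both lower, although of the 2 probes of Hs3st3a1 the first gave a change of 0.0016 and the other -0.99. The secreted protein Fibin was lower (-1.11 ± 0.13, adjusted p = 1.68e-07), as were the metalloproteinase Adamts9 (-0.96 ± 0.23, adjusted p = 0.0192) and the hormone Pthlh (-0.84 ± 0.17, adjusted p = 0.00517). The endothelial markers lay between -0.0118 and 0.164 in control lungs and between -0.18 and 0.0403 in exposed lungs, as a mean log2 deviation, and their part in these values was not tested. None of the 18 endothelial genes was called, but only 2 of them were higher in exposed lungs (median -0.15). For 2 genes of that list all exposed rats lay below all controls, as in 1.67% of all genes. In control lungs of D28 minus D3, Hs3st6 (2.08), Fibin (1.63), Hs3st3a1 (1.46), Slc6a2 (1.26) and Adamts9 (0.95) were also called. Their direction there was opposite to that at D90, and Pthlh (-0.07) was not called.

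Heat shock genes were lower in 10 of 11 cases (median -0.38), and Hsph1 was the 1 called (-0.68 ± 0.18, adjusted p = 0.0498), close to the threshold. Hspb1 (-0.43, adjusted p = 0.000793), Hspa5 (-0.40, adjusted p = 0.00978) and the collagen chaperone Serpinh1 (-0.38, adjusted p = 0.0167) passed the test below 1.5-fold. Rbm3, a cold-inducible RNA-binding protein chosen here after its value was seen, was over-expressed (0.61 ± 0.10, adjusted p = 8.43e-05). Between control lungs, D28 minus D3, Rbm3 was also called (-0.86), opposite to its direction at D90. All 7 red blood cell genes were lower (median -0.46). Scn10a, a sodium channel known from nociceptors, was over-expressed (0.95 ± 0.17, adjusted p = 0.000819), whereas the other 10 genes of the sensory neuron list were not called. Zp1, an egg coat protein, was lower (-1.29 ± 0.29, adjusted p = 0.0107). Cyp2e1, an alcohol-metabolising cytochrome, was higher (0.67 ± 0.17, adjusted p = 0.0296), but within the slide that held a single pair of rats its log2 change was 0.0071.

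No gene was called at D90 in the lists of T and cytotoxic lymphocytes (26 genes), interferon-stimulated genes (20), cell cycle (25), surfactant and alveolar type 2 (13), alveolar type 1 (9), motile cilia (17), Nrf2 targets (19) and mast cells and eosinophils (15). Their medians lay between -0.10 and 0.23. Of tissue that can be carried over in dissection, the 10 cardiac muscle genes had a median of 0.19 (range -0.04 to 0.32), the 8 fat genes 0.13 (-1.23 to 0.58) and the 7 skeletal muscle genes -0.04 (-0.17 to 0.29), with none called. Tcap (1.04 ± 0.23, adjusted p = 0.00866) and Mylk2 (0.60 ± 0.12, adjusted p = 0.00438), genes of striated muscle that are in none of these lists and were chosen after their values were seen, were over-expressed without overlap between groups.

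For 13 of the named genes the call was lost when 1 of the 10 rats was left out. Hsph1 lost it without 9 of the 10 rats taken in turn (adjusted p = 0.0506 to 0.251), all but control rat 5, and Tnfrsf17 without 8, all but control rat 2 and exposed rat 4 (adjusted p = 0.0537 to 0.236). Npas2 lost it without control rats 1, 2, 3 and 4 and exposed rats 3, 4 and 5 (adjusted p = 0.0701 to 0.147). Cxcl1 did so without control rats 1 and 4 and exposed rats 3 and 5 (log2 change -0.91 to -1.01, adjusted p = 0.0731 to 0.126). For Mzb1 these were control rats 1, 4 and 5 and exposed rats 3 and 5 (adjusted p = 0.0552 to 0.131), for Muc20 control rats 1 and 3 and exposed rats 3, 4 and 5 (adjusted p = 0.0644 to 0.106), for Cyp2e1 control rats 1, 3 and 5 and exposed rats 3 and 4 (adjusted p = 0.0643 to 0.191), and for Serpina3n control rats 1 and 2 and exposed rats 1, 3 and 5 (adjusted p = 0.0587 to 0.0889). Adamts9 and Cd177 depended on control rats 1 and 2 and exposed rat 5 (adjusted p = 0.0556 to 0.107 and 0.0568 to 0.0941), and Ccr10 on control rat 1 and exposed rats 3 and 5 (adjusted p = 0.0505 to 0.0945). The call of Zp1 depended on control rat 2 (adjusted p = 0.0698). Chi3l1 fell below the fold limit without control rats 1 and 2 and exposed rats 2, 4 and 5, with log2 changes of 0.55 to 0.58 and adjusted p still at 0.00354 to 0.00752.

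**Figure D4:**
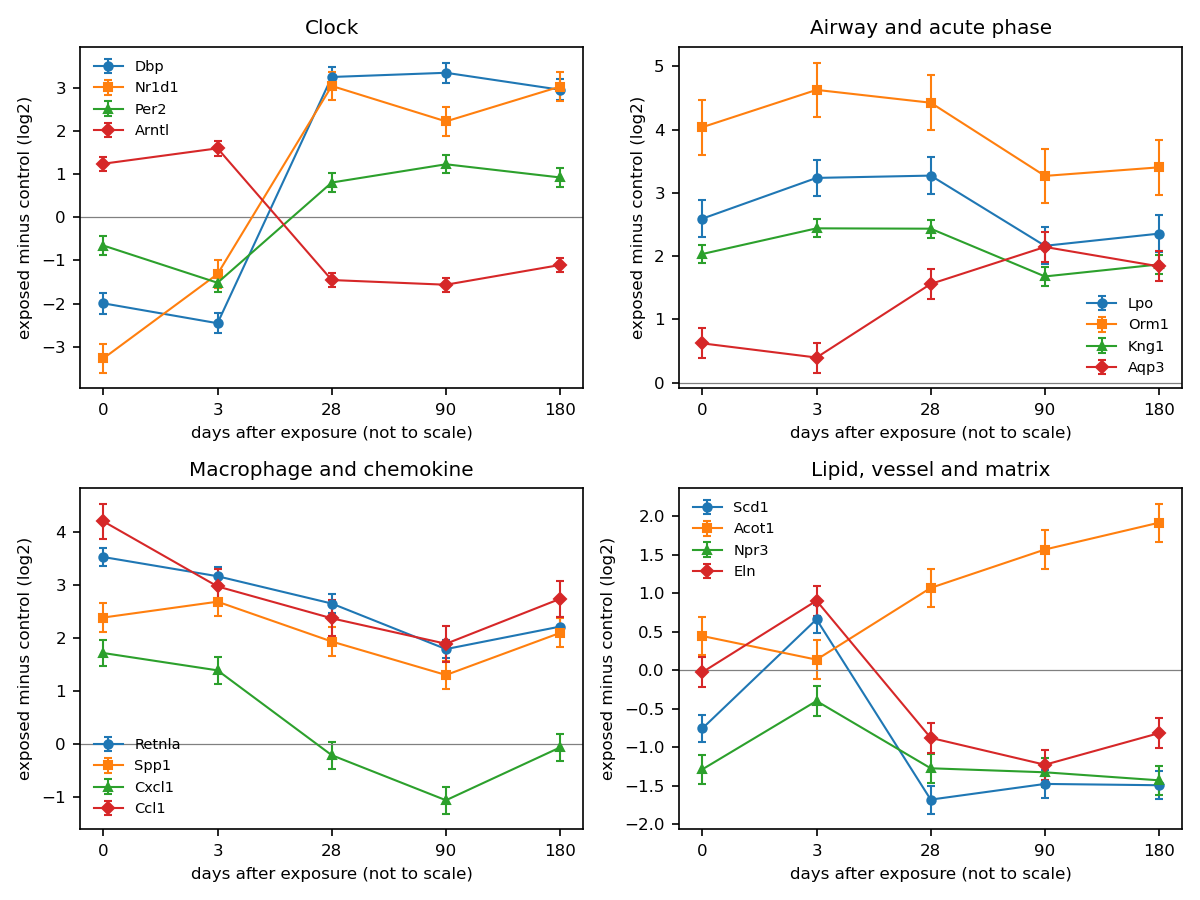
Log2 change, exposed minus control, with its SE (limma, 5 rats per group and day) for 16 genes at D0, D3, D28, D90 and D180. Clock genes change sign between D3 and D28 (Dbp from -2.45 to 3.25), Orm1 stays between 3.27 and 4.63, and Cxcl1 passes from 1.72 at D0 to -1.05 at D90.

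Each day had its own control and exposed rats, so that D90 could be set against the other days. The arrays of D180 lay on the same 3 slides as those of D90. Those of D0, D3 and D28 lay on other slides, except that of exposed rat 1 of D3. A difference between D90 and D0, D3 or D28 is thus also one between slides, and these cannot be fully told apart. In either direction 4.16% of all genes were called at D0, 3.45% at D3, 1.3% at D28 and 0.321% at D180. Of the 58 genes over-expressed at D90, 47 (81%) were also over-expressed at D28, 33 at D180, 29 at D3 and 26 at D0, which had 0.84%, 0.242%, 1.91% and 2.71% of all genes over-expressed. Of the 36 under-expressed, 29 were also under-expressed at D28, 14 at D180, 1 at D3 and 13 at D0 (0.456%, 0.0792%, 1.55% and 1.45% of all genes). None was called in the opposite direction at D28 or D180. At D3, however, 17 of the 58 were under-expressed and 14 of the 36 over-expressed, and at D0 these counts were 12 and 5. Of that day's own calls, the shared genes made up 22.2% of the over-expressed at D28 and 54.1% at D180.

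Over-expression at all 4 other days was found for 18 of the 58 genes, Retnla, Orm1, Lpo, Kng1, Kng1l1, Ccl1, Chia, Chi3l1, Spp1, Mmp7, Muc20, Tmprss9, Cd177 and Scn10a among them. No under-expressed gene was under-expressed at all 4, but Scd1, Npr3, Adamts9, Ephx4 and Zp1 were so at 3. At no other day were 10 of the DEGs called in the direction of D90. They included Cxcl1, whose changes were 1.72 at D0, 1.39 at D3, -0.21 at D28 and -0.06 at D180. Cyp2e1 was another, with changes of -0.82 at D0, -0.81 at D3, 0.37 at D28 and 0.60 at D180. A call at D90 alone is not a difference between days, and in the interaction contrast below no DEG differed from D28 or D180. Also among these 10 was LOC502358, a predicted epsilon-like globin that was well above background on 2 of 5 control arrays and on no exposed array. Taken from the control mean against the dimmest signal well above background on each exposed array, it was 1.71-fold lower in exposed lungs. That value is not a lower limit, since the control mean includes arrays that were not well above background. Control rats 1 and 4 read 5.18 and 5.85. Control rats 2, 3 and 5 (3.37, 2.90 and 3.34) lay inside the exposed range of 2.51 to 3.48. The largest increase outside the named genes was that of an unannotated probe, A_64_P024384 (2.34 ± 0.60, adjusted p = 0.0424), with exposed values of 7.30, 6.71, 4.38, 4.85 and 7.29 and 3 of 5 control arrays well above background.

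The exposure effect itself was tested for a difference between days with an interaction contrast in limma at the same thresholds. Against D28, 0 of 25238 genes differed (746 at an unadjusted p under 0.05), and with slide in the fit the count was again 0. Against D180, 3 genes differed (0.0119%), all with a lower value at D90 and none a DEG, namely Dact1 (-0.56 at D90 and 0.70 at D180), Dusp5 (-0.49 and 0.39) and Adam19 (0.03 and 0.67). Against D0 there were 541 genes (2.14%), 165 higher (0.654%) and 376 lower (1.49%) at D90. Against D3 there were 466 (1.85%), 217 higher (0.86%) and 249 lower (0.987%). Of the 94 DEGs, 43 differed from D0 and 56 from D3. The 94 were chosen by their change at D90, which is also part of these contrasts. These 2 counts are therefore raised by the choice and are no separate test. The same limit holds for single DEGs set against D0 or D3 below.

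For some of the named genes the effect of exposure was smaller at D90 than at D0. That on Retnla was lower by 1.74 on the log2 scale (interaction, limma adjusted p = 3.8e-06), that on Cd177 by 1.77 (adjusted p = 1.28e-07), on Chi3l1 by 1.33 (adjusted p = 2.76e-08), on Cfi by 1.28 (adjusted p = 9.26e-10) and on Ccl1 by 2.31 (adjusted p = 0.00127). Ccl2 (D90 minus D0 -3.23, adjusted p = 9.86e-10), Ccl7 (-3.04, adjusted p = 2.14e-08) and Lcn2 (-3.44, adjusted p = 1.66e-11), which had large increases at D0, were not called at D90. For Orm1 (-0.77, adjusted p = 0.747), Lpo (-0.43, adjusted p = 0.836), Kng1 (-0.35, adjusted p = 0.524), Chia (-0.39, adjusted p = 0.198), Kng1l1 (-0.18, adjusted p = 0.974), Spp1 (-1.08, adjusted p = 0.129), Mmp7 (-0.57, adjusted p = 0.55) and Serpina3n (-0.0021, adjusted p = 1) no difference from D0 passed the test. Aqp3 went the other way, with a larger increase at D90 than at D0 (1.52, adjusted p = 0.00293) and D3 (1.75, adjusted p = 0.000615), as did Acot1 against D3 (1.43, adjusted p = 0.0103). The decrease of Scd1 at D90 differed from its increase at D3 (-2.14, adjusted p = 1.41e-07), and not detectably from the changes at D28 (0.20) and D180 (0.02).

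**Figure D5:**
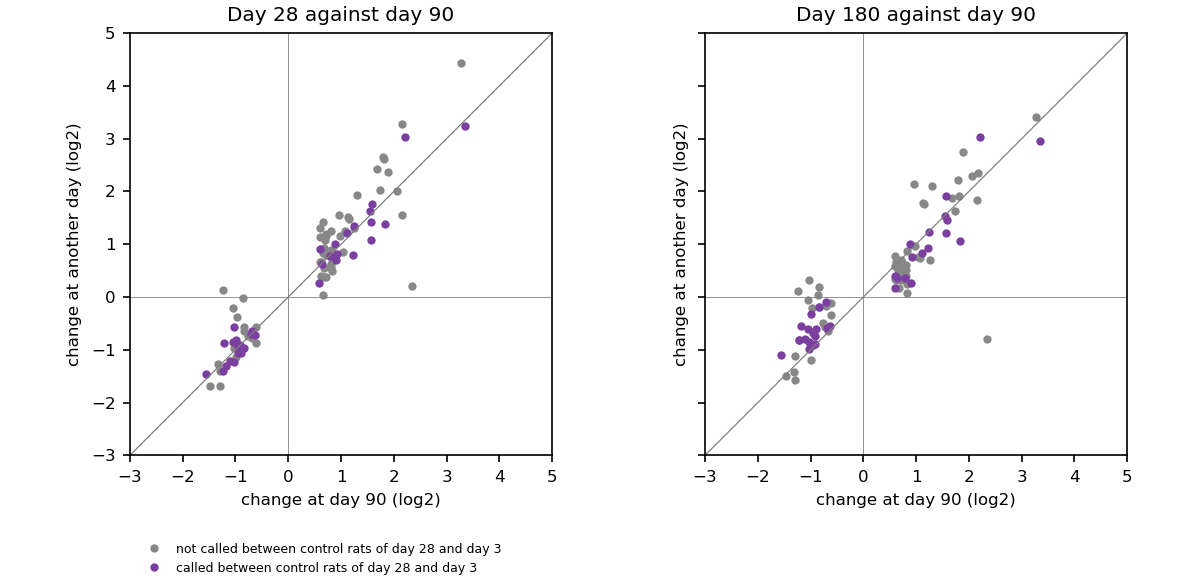
Log2 change at D28 (left) and D180 (right) against that at D90 for the 94 DEGs of D90, with the line of equal change; genes called between control lungs of D28 and D3 are purple. Among the 58 over-expressed genes all 58 are above 0 at D28 and 57 at D180, and among the 36 under-expressed genes 35 and 32 are below 0; the genes were chosen by the values on the horizontal axis.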

How the data were processed

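The deposited array files hold the fluorescence intensity of each spot, extracted by the authors with Agilent Feature Extraction (11.0.1.1 per the file headers) from 100 ng of RNA per rat. The processed signal was used, an intensity after removal of the background that had not been scaled. A second deposited table, of normalized intensity per spot, served as an alternative. Control spots and spots the software had marked as non-uniform or outlying were not used. Intensities were averaged by probe, then by gene name, log2 transformed and quantile normalized over the 50 arrays. A gene was tested if 5 or more arrays had it above 95% of their negative control spots, which held for 25238 of 25885. At D90, 20 gene values were missing and entered the fit as missing. limma 3.58.1 in R 4.3.3 was fitted with 1 mean per group over all 50 arrays (lmFit, eBayes, two-sided, Benjamini-Hochberg over all genes). DEGs had at least 1.5-fold change and adjusted p under 0.05. The precision of a value is limited by the 5 arrays per group.

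Groups came from the sample titles. The text names the 12 largest increases and 12 largest decreases among DEGs with a symbol, every DEG in a gene list, and 14 genes followed at all days, except 1 item that is not reported here. Other DEGs it names were chosen after their values were seen. The gene lists and the genes in them were chosen with earlier results of these data known. The script was tested on simulated data. The alternatives tried were slide, slide with row, or replicate number as blocks, D90 arrays alone, other scalings, background corrections, probe rules, filters and thresholds, and leaving out each rat.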

Additional observations from a re-analysis of the deposited data

Results flagged for a closer look

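In 7 of 108 groups of 5 rats examined, 1 rat lay apart from the other 4 by more than 0.71 of the range of its group. By chance about 1 in 20 groups would be marked in this way. Of the control rats, replicate 1 was low for Kng1l1, with a log2 intensity of 5.53 against 6.30 to 6.60 in the others. Control rat 3 was high for Mmp7 (7.44 against 6.42 to 6.62). Of the exposed rats, replicate 3 was high for Bpifb1 (13.91 against 11.30 to 11.82) and low for Chi3l1 (12.03 against 12.45 to 12.61) and Lcn2 (9.42 against 10.11 to 10.32). Exposed rat 4 was high for Slc6a2 (10.19 against 9.63 to 9.76), and exposed rat 5 was low for Hsph1 (7.52 against 8.07 to 8.27).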

How the results depend on the processing

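The count of 94 DEGs at D90 was 147 with slide as a block, 58 when the 10 arrays of D90 were fitted alone (49 shared with the 94), 251 with no fold limit and 393 with an unadjusted p under 0.05 and the fold limit. Leaving out 1 rat at a time gave 68 to 96 (over-expressed 43 to 63, under-expressed 24 to 34), of which at least 64 were shared. Scaling to the 75th percentile gave 87, normexp background correction 65, the brightest probe of a gene 87, the log2 mean over probes 91, every probe taken separately 106 probes, no filter on dim genes 89, a filter on signal well above background within D90 93, the deposited table of values 72, trended and robust variances 90, and slide with row as blocks, chosen after seeing the data, 132 (79 shared). With the replicate number as a block the count was 76 (74 shared). Same-numbered rats of the 2 groups did not deviate together (r = 0.134, -0.0888, 0.0127, -0.0158 and 0.177 for numbers 1 to 5, of which 1, 3 and 5 share a slide), so that the numbers were not taken to pair the rats. The difference between D90 and D0 rose from 541 genes to 822 with slide as a block and to 963 with no fold limit, and that between D90 and D180 from 3 to 10 with slide as a block. The cause of these shifts was not tested. Over 22 settings the direction of all 54 named genes was kept. Of these genes 22 lost their call in at least 1 setting, most often Hsph1 (16 settings), Tnfrsf17 (12), Mzb1 (11), Serpina3n (10) and Npas2 (9). With the D90 arrays alone 16 of them were not called, at adjusted p from 0.0528 to 0.326, namely Adm, Bpifb1, Ccdc116, Ccr10, Chi3l1, Cxcl1, Cyp2e1, Hsph1, Kng1l1, Mmp7, Muc20, Mzb1, Scn10a, Spp1, Tnfrsf17 and Zp1. With slide and row as blocks, Chi3l1, Cyp4b1, Hsph1, Mzb1, Serpina3n and Tnfrsf17 were not called. Dim signal limits Orm1, Ccl1, Tmprss9, Epm2a and Muc20, which were not well above background on 1 or 2 of the 5 control arrays.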
